A study of Mus musculus with 6 samples.

Results

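This account follows 39 immediate early and dissociation-induced genes through cells sorted from mouse islets. The genes were taken by symbol from a list whose rule uses no measured value, though earlier results of these data were known when the list was drawn up, and all 39 were found among the 46959 rows of the deposited table. RNA was sequenced from 3 sorted populations with 2 libraries each. The adult mice were bitransgenic for Ins1-H2b-mCherry, a nuclear reporter driven by an insulin promoter, and Ucn3-eGFP, a reporter driven by the promoter of the maturity marker urocortin 3. Cells with mCherry alone are called immature beta cells, cells with both colours mature beta cells, and cells with neither colour double negative cells, so any beta cell without reporter signal would fall in the last group. Every group carried both transgenes and passed through collagenase isolation, an overnight culture in 5.5 mM glucose with 10% serum, trypsin dissociation and sorting. No undissociated or uncultured islets are among the 6 libraries. Islets of 10 to 12 animals were pooled per library. The sex label is male for replicate 1 and female for replicate 2 of each population, whereas the design text speaks of females only. The design text also says that the populations came from the same islets, so libraries of the same number are taken to share a pool of animals, although the labels do not tie each library to its pool.

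Immediate early genes are transcribed within minutes of a stimulus from factors that are already in the cell, chiefly serum response factor with its partners and the cyclic AMP response element binding protein CREB, and their mRNAs decay fast. Their products are transcription factors such as the AP-1 dimers of Fos and Jun proteins, and brakes on the same signals, such as MAP kinase phosphatases, mRNA decay factors and inhibitors of NF-kappaB. Tissue dissociation and cell sorting are known to switch many of them on, and in beta cells glucose and calcium entry do so as well.

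Levels are given in RPKM, the reads of a gene scaled by its length and by the reads of its library, so they can be compared between genes. The library sizes implied by the RPKM steps were 2393841 and 3448926 for the immature libraries and between 22063880 and 26824380 for the other 4. The gene reads recovered with annotated lengths summed to more, 2747328 and 3969973 for the immature libraries and between 24194730 and 32039507 for the others, so the implied sizes are the divisors behind the RPKM and may not be read totals. Low levels are least certain in immature cells on either measure. The populations were checked against marker genes of the islet cell types. The 8 beta cell markers had summed levels of 246400 and 263200 RPKM for mature cells, 72850 and 77970 RPKM for immature cells and 4699 and 7006 RPKM for double negative cells. For 7 alpha cell markers the sums were 178200 and 171700 RPKM (double negative), 29180 and 19870 RPKM (immature) and 674.2 and 878.6 RPKM (mature). The immature libraries also held the most endothelial and myeloid transcripts, with 634.2 and 638.3 RPKM for 10 endothelial markers and 1892 and 1973 RPKM for 12 macrophage and myeloid markers. The endothelial sum was 5.04 and 4.07 RPKM for mature and 155.8 and 162.1 RPKM for double negative cells, and the myeloid sum 62.5 and 63.2 RPKM and 50.5 and 52.8 RPKM. Cd68 and C1qa made up most of the mature myeloid sum, and the other myeloid markers were lower in mature than in double negative cells. The p-values below measure only the spread between these libraries, which are 2 pools per population.

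The promoters below are shown because they hold motifs of CREB, serum response factor or heat shock factor next to genes whose levels part ways between the populations. The listed genes had promoter windows of 250 bases before to 50 bases after the RefSeq start in 33 of 39 cases (build GRCm38.p6), and the windows for Egr1, Egr3, Ier2, Klf10, Myc and Sik1 were not used here. Each sequence is the 250 bases before the start, 5′ to 3′ on the gene's strand. In the first group the capitals mark every TGACG, the half-site of the cyclic AMP response element, on either strand (the reverse complement reads CGTCA), a motif chosen after the windows had been seen. It is shown for the 3 nuclear receptor genes of the Nr4a family and for Maff.
Nr4a1 (chr15:101266596-101266845, plus strand): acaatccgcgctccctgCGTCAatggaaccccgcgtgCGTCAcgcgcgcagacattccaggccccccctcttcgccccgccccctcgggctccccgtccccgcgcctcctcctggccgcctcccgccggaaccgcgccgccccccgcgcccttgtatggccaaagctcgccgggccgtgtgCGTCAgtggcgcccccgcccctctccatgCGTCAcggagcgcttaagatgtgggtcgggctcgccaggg
Nr4a2 (chr2:57124004-57124253, minus strand): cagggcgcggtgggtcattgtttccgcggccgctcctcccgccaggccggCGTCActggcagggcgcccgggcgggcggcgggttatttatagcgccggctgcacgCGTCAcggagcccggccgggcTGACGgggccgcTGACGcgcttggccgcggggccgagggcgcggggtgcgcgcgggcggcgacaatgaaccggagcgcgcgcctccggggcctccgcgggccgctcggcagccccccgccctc
Nr4a3 (chr4:48045055-48045304, plus strand): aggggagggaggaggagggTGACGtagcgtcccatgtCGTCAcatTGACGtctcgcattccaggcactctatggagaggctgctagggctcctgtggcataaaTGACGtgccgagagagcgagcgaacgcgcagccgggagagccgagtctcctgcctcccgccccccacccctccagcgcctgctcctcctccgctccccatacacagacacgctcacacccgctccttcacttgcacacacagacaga
Maff, the first of its RefSeq starts (chr15:79347270-79347519, plus strand): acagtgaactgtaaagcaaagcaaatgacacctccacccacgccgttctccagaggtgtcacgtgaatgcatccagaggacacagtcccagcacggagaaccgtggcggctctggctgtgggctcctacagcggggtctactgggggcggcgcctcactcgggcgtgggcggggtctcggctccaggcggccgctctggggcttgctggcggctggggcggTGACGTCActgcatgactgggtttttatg
Each Nr4a window holds 4 half-sites, and in this Maff window 2 half-sites overlap to form the full palindrome TGACGTCA. In the next pair the capitals mark the CArG box, the site bound by serum response factor.
Zfp36 (chr7:28379229-28379478, minus strand): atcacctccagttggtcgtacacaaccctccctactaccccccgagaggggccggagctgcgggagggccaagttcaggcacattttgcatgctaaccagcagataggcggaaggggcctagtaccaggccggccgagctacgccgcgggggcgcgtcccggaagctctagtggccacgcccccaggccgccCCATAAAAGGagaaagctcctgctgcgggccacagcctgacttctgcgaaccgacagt
Dusp5 (chr19:53528895-53529144, plus strand): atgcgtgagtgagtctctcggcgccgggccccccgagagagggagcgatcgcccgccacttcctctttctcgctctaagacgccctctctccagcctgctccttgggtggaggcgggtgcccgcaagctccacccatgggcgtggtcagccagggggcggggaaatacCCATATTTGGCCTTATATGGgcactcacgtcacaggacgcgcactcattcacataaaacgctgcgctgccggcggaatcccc
Dusp5 carries 2 adjoining CArG boxes and Zfp36 carries 1. In the last pair the capitals mark GAANNTTC, the core of the heat shock element, in the 2 genes of inducible Hsp70.
Hspa1a (chr17:34972157-34972406, minus strand): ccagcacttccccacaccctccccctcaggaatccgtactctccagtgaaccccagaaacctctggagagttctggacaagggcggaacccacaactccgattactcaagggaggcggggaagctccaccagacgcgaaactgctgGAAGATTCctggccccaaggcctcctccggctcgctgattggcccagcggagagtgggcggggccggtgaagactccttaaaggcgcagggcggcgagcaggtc
Hspa1b (chr17:34959239-34959488, minus strand): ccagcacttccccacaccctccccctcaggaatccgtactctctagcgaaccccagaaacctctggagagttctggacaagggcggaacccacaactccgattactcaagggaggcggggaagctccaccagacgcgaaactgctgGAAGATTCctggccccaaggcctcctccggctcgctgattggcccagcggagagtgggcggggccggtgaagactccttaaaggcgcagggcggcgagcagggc
These last windows carry the same base at 247 of 250 positions.

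Over the whole windows, both strands searched, TGACG on either strand was found in 17 of 33 listed genes (51.5%) and in 23.0% of all 27025 genes with a window. Besides the genes shown, these included Fos, Junb, Egr2, Klf4 and Cyr61, whose lowest mean was in mature cells. The half-site is thus not particular to genes that are highest in mature cells. The full TGACGTCA, which contains it, stood in 3 listed genes (9.09% against 2.03%), namely Btg2, Dusp1 and Maff. A CArG box stood in Egr2, Zfp36 and Dusp5 (9.09% against 1.81%). The AP-1 site TGANTCA was in 2 listed genes (6.06% against 8.97%), GAANNTTC in 4 (12.1% against 9.04%), the EGR site GCGTGGGCG in Maff alone (3.03% against 0.707%) and TATAAA in 9 (27.3% against 15.7%). A match is only a run of letters in this window and says nothing of binding.

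Most of the listed genes were expressed in all 3 populations. Fos, Junb, Ier2, Ier3, Btg2 and Gadd45g were the ones that reached at least 55.1 RPKM in every library. Together the 39 genes summed to 1603 and 1650 RPKM for immature cells, 1511 and 1366 RPKM for double negative cells and 1104 and 1054 RPKM for mature cells, which is between 0.215% and 0.428% of all RPKM in a library. Ins2 alone took 33.2% and 34.8% of all RPKM in mature and 12.0% and 12.4% in immature libraries. Gcg took 40.3% and 38.9% in double negative libraries. The part of these hormone shares in the levels of the listed genes was not tested. Among the 37 listed genes that passed the filter on low values, the immature mean was the highest of the 3 in 24 (64.9%), beside 55.3% of all 13367 tested genes. The double negative mean was highest in 10 (27.0%, beside 19.8%) and the mature mean in 3 (8.11%, beside 24.9%). These counts depend on the scaling: on log2 means the immature group was highest in 24 of 37 listed genes as deposited (54.7% of all genes), in 15 of 36 after median-ratio rescaling (38.3%) and in 15 of 37 after quantile normalization (24.7%). The order of the means as deposited split the 39 genes further, without a count of each order over all genes to set beside it. In 14 it ran immature, double negative, mature, as for Klf6, Dusp1, Dusp6, Myc and Cyr61, which kept this order under both rescalings. In 12 it ran immature, mature, double negative, as for Fosb, Atf3, Dusp5, Ier5 and the Hsp70 genes, and in 9 double negative, immature, mature, as for Jun, Junb, Btg2 and Socs3. Nr4a1, Nr4a2 and Maff ran mature, immature, double negative, and Jund was the lone gene with its lowest mean in immature cells. Some of the 37 tested genes had values that overlapped between 2 groups. The share over all tested genes was not computed, so their number is not read as a trait of the list. These were Nfkbia, Sik1 and Jund between immature and mature cells, Ier5 and Jund between mature and double negative cells, and Klf10, Zfp36, Egr1, Klf2 and Jund between immature and double negative cells.

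**Figure D1:**
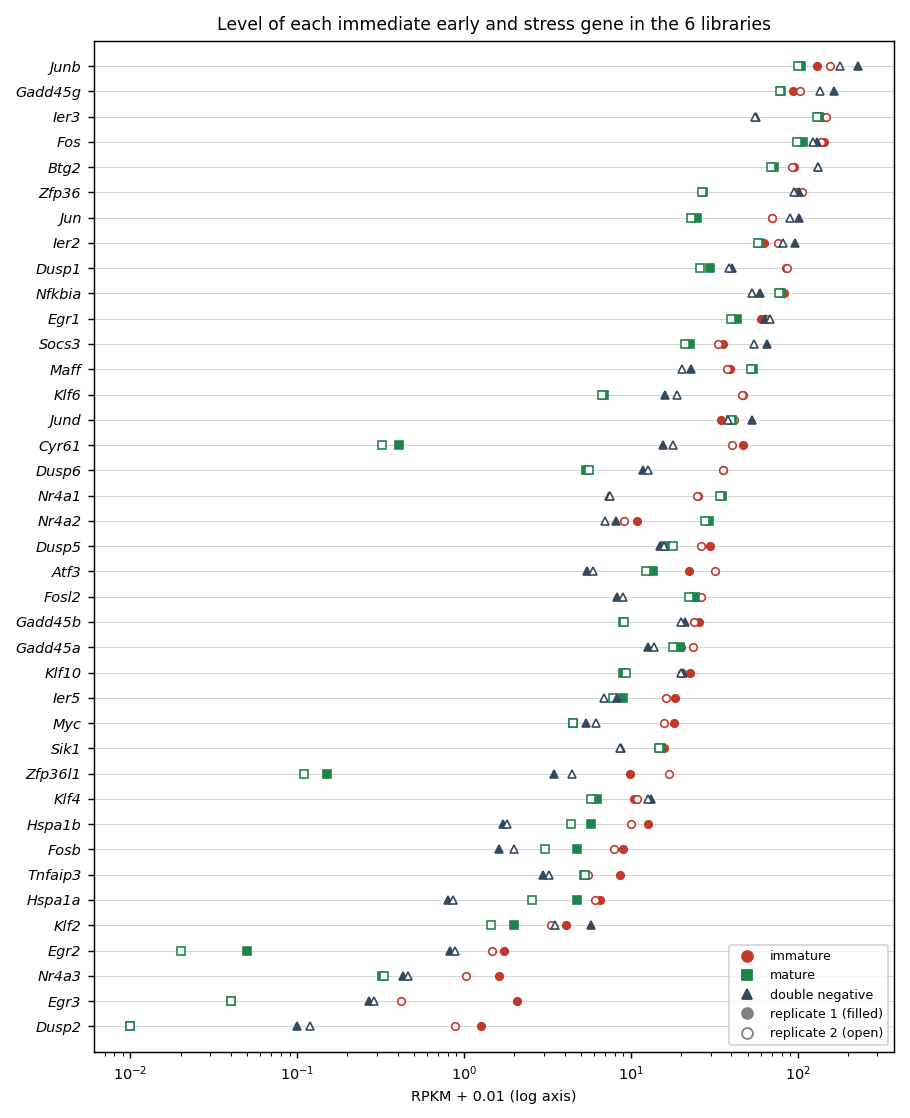
Level of each of the 39 genes in every library, as RPKM + 0.01 on a log axis, with colour and shape for the population and filled or open symbols for replicates 1 and 2. Replicates lie close together for most genes, and Cyr61, Zfp36l1, Egr2, Egr3, Dusp2 and Nr4a3 have both mature libraries under 0.5 RPKM.

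The first comparison asked how these genes differ between immature and mature beta cells, both sorted as positive for the insulin promoter reporter. Most were higher in the immature cells. Cyr61, a secreted matrix protein, and Zfp36l1, an mRNA decay factor, were nearly absent from mature cells, and Klf6, Dusp6, Zfp36, Myc, Dusp1, Jun, Gadd45b, Egr2, Klf10 and Hspa1b were also higher by at least 1 on the log2 scale. Nr4a1, Nr4a2 and Maff went the other way. Of 37 tested genes, 26 rose (70.3%, beside 49.8% of all tested genes), 3 fell (8.11%, beside 15.5%) and 8 did not pass, at an adjusted p under 0.05 from limma on log2(RPKM + 1) across all genes. With a size of at least 1, 12 were higher (32.4%, beside 19.0%) and 1 was lower (2.7%, beside 2.15%). The median difference was 0.70 over the listed genes and 0.29 over all tested genes. The scaling moves that background: 76.2% of all calls were higher in immature cells as deposited, 59.9% after median-ratio rescaling and 36.8% after quantile normalization, with the median of all genes at 0.10 and -0.17. Under these rescalings the listed genes counted 22 higher and 4 lower of 36 and 24 higher and 4 lower of 37. Over all tested genes the like counts were 5119 higher and 3427 lower of 13292, and 3122 and 5359 of 13367. Nr4a3 turned sign under quantile normalization (-0.20). The calls for Gadd45g, Junb, Klf2 and Hspa1a were not stable. Median-ratio rescaling ended them for Gadd45g (0.10, adjusted p = 0.43), Junb (0.25, 0.189) and Hspa1a (0.51, 0.0858), quantile normalization for Klf2 (0.05, 0.851) and Hspa1a (0.11, 0.629), and dropping the filter on low values for all 4 (adjusted p from 0.0648 to 0.0998). With 1 weight per group Gadd45g (0.0646), Klf2 (0.0645) and Hspa1a (0.204) did not pass either. Among single libraries, Gadd45g and Junb lost theirs without immature replicate 2 or without either mature library (adjusted p from 0.1 to 0.121 and from 0.0802 to 0.117), Klf2 without immature replicate 1 or mature replicate 2 (0.068 to 0.111), and Hspa1a without any 1 library other than mature replicate 1 (0.0648 to 0.0925).

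All 10 endothelial and all 12 myeloid markers were also higher in immature than in mature cells, as were 8 of 9 tested mesenchymal markers, whose sum was 144.6 and 102.2 RPKM against 0.44 and 0.49 RPKM, and all 7 tested acinar markers, at 8621 and 27030 against 172.1 and 118.3 RPKM. Markers of the other endocrine cells were higher as well, with summed levels 31.6-fold higher for alpha (7 of 7 tested), 12.5-fold for delta (3 of 4) and 48.5-fold for PP cells (2 of 2). Ductal markers were mixed, with 3 higher and 2 lower of 6 tested and an immature sum 0.642-fold that of mature cells. The mature ductal sum was mostly Spp1, at 748.1 and 821.4 RPKM against 288.2 and 285.55 RPKM in immature cells, and Krt7 was lower in immature cells too. Krt19 was higher in immature cells, at 33.55 and 55.02 against 7.16 and 7.74 RPKM. So were Sox9, at 4.34 and 3.58 against 0.03 and 0.05 RPKM, and Muc1, at 5.7 and 13.84 against 1.15 and 0.99 RPKM. No endothelial, myeloid or mesenchymal marker of the lists was at 0 in both libraries of any population, so this does not set immature cells apart. The part of these cells in the differences of the listed genes was not tested. In such bulk samples, fewer cells of a type and less RNA per cell cannot be told apart.

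**Figure D2:**
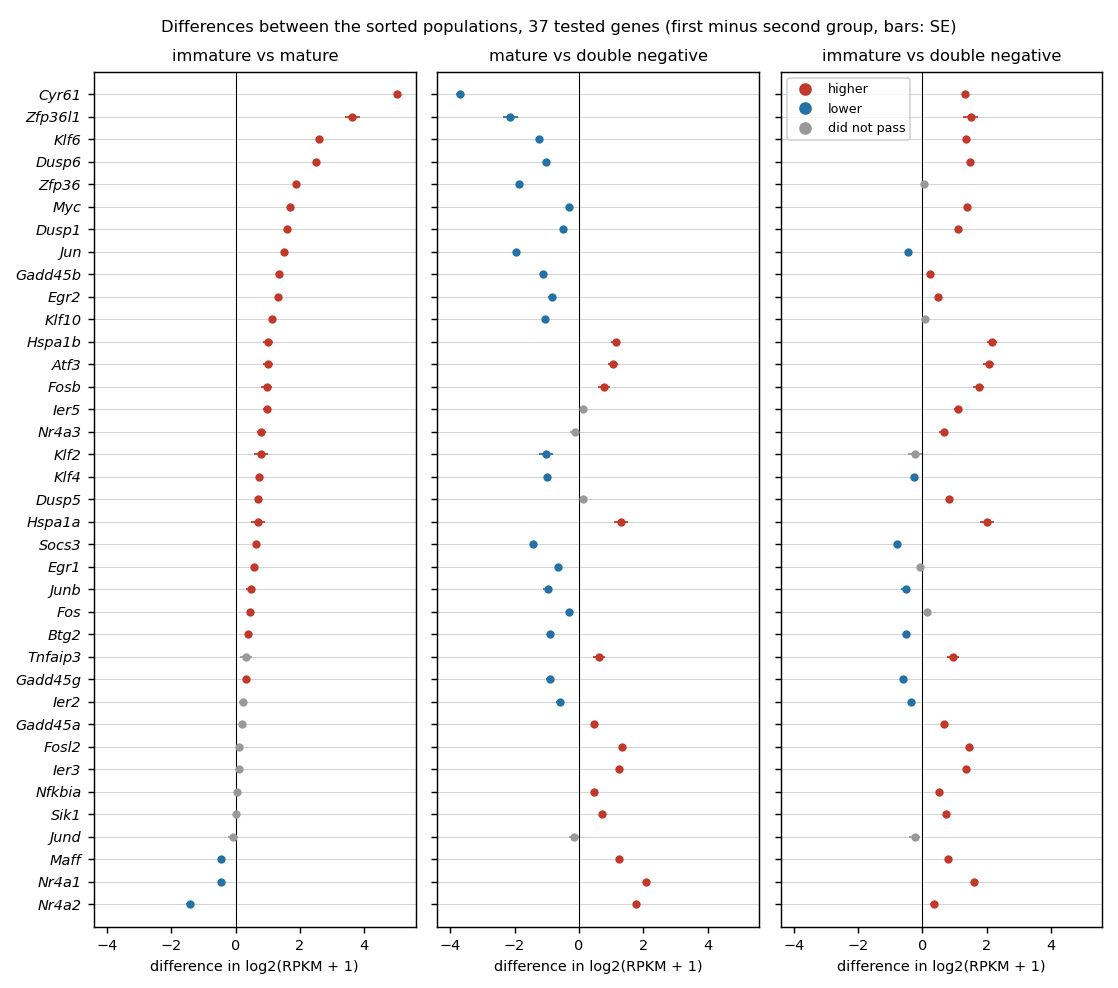
Difference in log2(RPKM + 1) for the 37 tested genes in the 3 comparisons, first minus second group, with bars for the standard error and colour for the call (adjusted p under 0.05), in the order of the immature against mature differences. Cyr61 heads the first panel at 5.03 and Nr4a2 closes it at -1.43.

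Between mature beta cells and the double negative islet cells, the second comparison, the list divided. Nr4a1, Nr4a2, Fosl2, Hspa1a, Maff, Ier3, Hspa1b and Atf3 were higher in mature cells by at least 1 on the log2 scale. Cyr61, Zfp36l1, Jun, Zfp36, Socs3, Klf6, Gadd45b, Klf10, Klf2 and Dusp6 were lower by at least 1. Of 37 genes, 13 rose (35.1%, beside 23.1% of all tested genes), 20 fell (54.1%, beside 31.2%) and 4 did not pass. Past a size of 1 the counts were 8 higher (21.6%, beside 5.35%) and 10 lower (27.0%, beside 8.93%). The median difference was -0.31, and -0.08 over all genes. Median-ratio rescaling left 13 higher and 20 lower of 36, and quantile normalization 13 and 19 of 37. Over all tested genes the like counts were 3187 higher and 4247 lower of 13292, and 3496 and 3178 of 13367. Myc and Tnfaip3 lost their calls without any 1 of the 4 libraries compared (adjusted p from 0.0585 to 0.218 and from 0.111 to 0.145) and without the filter on low values (0.0948 and 0.0953). Myc also lost its call with the replicate number as a block (0.073), without the intensity trend (0.0512) and under quantile normalization (0.237). Fos lost its call without mature replicate 2 or double negative replicate 1 (0.0514 to 0.0782), Gadd45a without replicate 1 of either group (0.0643 to 0.0652), Fosb without double negative replicate 1 (0.0849) and Klf2 without mature replicate 2 (0.0611).

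The third comparison set immature beta cells against double negative cells. It shares its libraries with the other 2 comparisons, so the 3 sets of values are not independent of each other. Hspa1b, Atf3, Hspa1a, Fosb, Nr4a1, Zfp36l1, Dusp6, Fosl2, Myc, Klf6, Ier3, Cyr61, Dusp1 and Ier5 were higher in immature cells by at least 1 on the log2 scale, and no gene was lower by that much. Of 37 genes, 24 rose (64.9%, beside 45.9% of all tested genes), 7 fell (18.9%, beside 10.6%) and 6 did not pass. With a size of at least 1 the count was 14 higher (37.8%, beside 13.8%) and 0 lower, beside 1.86%. The median was 0.68, and 0.24 over all genes. The share of all calls that were higher was 81.2% as deposited, 61.0% after median-ratio rescaling and 39.7% after quantile normalization. Under these rescalings the listed genes counted 21 higher and 8 lower of 36 and 20 higher and 12 lower of 37. Over all tested genes the like counts were 4057 higher and 2594 lower of 13292, and 2864 and 4348 of 13367. Gadd45b turned sign under quantile normalization (-0.01) and lost its call after median-ratio rescaling (0.05, adjusted p = 0.524) and without double negative replicate 2 (0.083). Quantile normalization also ended the calls for Egr2 (0.947), Nr4a2 (0.855) and Nr4a3 (0.59), median-ratio rescaling that for Nr4a2 (0.225), and the replicate number as a block that for Ier2 (0.0706). With 1 weight per group Junb (0.0557), Ier2 (0.0754), Klf4 (0.0925) and Nr4a2 (0.0655) did not pass, and voom on recovered reads left out Klf4 (0.1) and Gadd45b (0.0741). Without double negative replicate 1 the calls for Egr2 (0.0633), Tnfaip3 (0.0525), Ier2, Junb, Klf4 and Nr4a3 were lost. Ier2 and Junb also lost theirs without immature replicate 1, Ier2 and Nr4a2 without either mature library, Nr4a2 without immature replicate 1 or double negative replicate 2, and Klf4 and Nr4a3 without double negative replicate 2, with adjusted p up to 0.234 for Ier2, 0.1 for Junb, 0.164 for Nr4a2, 0.117 for Klf4 and 0.0623 for Nr4a3. Endothelial and myeloid markers were higher in immature cells here too, by 4.0-fold and 37.4-fold in summed RPKM, in 10 of 10 and 12 of 12 cases. Acinar markers were 15.5-fold higher (7 of 7 tested), with double negative replicates far apart at 245.2 and 2048 RPKM, and mesenchymal markers 4.88-fold (8 of 9). The ductal sum was 0.795-fold that of double negative cells, with 3 of 6 tested markers higher. Most of the double negative ductal sum was Spp1, at 619.7 and 624.45 RPKM against 288.2 and 285.55 RPKM in immature cells. The part of these cells in the differences was not tested.

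The Fos and Jun genes encode the subunits of AP-1, the classic early response factor. Fos was abundant in every library, at 144.6 and 138.2 RPKM in immature, 107.3 and 98.7 RPKM in mature and 131.1 and 123.8 RPKM in double negative cells. Its groups did not overlap, but the differences were small, with immature above mature by 0.45 (SE 0.06, limma adjusted p = 0.00135). Its immature against double negative difference of 0.15 did not pass (adjusted p = 0.0911) and was -0.06 under both rescalings. Fosb, a second Fos protein, was far scarcer, at 8.91 and 7.96 RPKM in immature, 4.72 and 3.04 in mature and 1.62 and 1.98 in double negative cells. It exceeded double negative cells by 1.75 (SE 0.18, limma adjusted p = 0.000574) in immature cells. Fosl2, a further Fos relative, had neighbouring levels in both beta cell populations, at 24.4 and 26.4 RPKM for immature and 24.4 and 22.3 RPKM in mature cells, against 8.26 and 8.98 RPKM in double negative cells. The mature against double negative difference was 1.34 (SE 0.08, limma adjusted p = 5.21e-05), and that between immature and mature cells, 0.12, had an adjusted p = 0.225 and turned sign under both rescalings (-0.10 and -0.01).

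Jun, the main partner of Fos, had a different profile. It measured 70.5 and 70.0 RPKM in immature, 24.9 and 22.9 RPKM in mature and 101.2 and 89.9 RPKM in double negative cells (chromosome 4, 95049034 to 95052222, minus strand, GRCm38). Mature cells differed from double negative cells by -1.95 (SE 0.07, limma adjusted p = 1.34e-05) and immature from mature cells by 1.52 (SE 0.07, adjusted p = 2.27e-05). Junb, which can restrain Jun, followed the same order with smaller steps, at 130.1 and 155.7 RPKM, 105.2 and 100.5 RPKM and 229.7 and 178.8 RPKM. Jund, the most constitutive Jun gene, stood at 34.5 and 41.7 RPKM in immature, 40.5 and 39.7 in mature and 53.0 and 38.3 RPKM in double negative cells and passed in none of the 3 comparisons. Its exons overlap those of an antisense gene over 52.6% of their length, and the Jun and Junb exons overlap opposite-strand genes over 7.28% and 7.52%, so reads may have been shared out or left uncounted there. Set side by side, the mature against double negative difference was -0.31 for Fos and -1.95 for its partner Jun.

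Atf3, Maff and Myc are further early response factors, of which Atf3 is a stress-induced bZIP protein, Maff a small Maf protein without an activation domain and Myc a driver of growth genes. Atf3 stood at 22.3 and 32.0 RPKM in immature, 13.5 and 12.3 in mature and 5.43 and 5.92 RPKM in double negative cells. The immature against double negative difference of 2.06 (SE 0.16, limma adjusted p = 0.000244) was among the largest of that comparison. Maff was highest in mature cells, at 53.7 and 52.1 RPKM, against 39.4 and 37.6 in immature and 23.0 and 20.3 RPKM in double negative cells. The mature level exceeded the double negative one by 1.26 (SE 0.07, limma adjusted p = 5.38e-05). Myc had its highest level in immature cells, at 18.1 and 15.7 RPKM, with 4.50 and 4.51 in mature and 5.37 and 6.18 RPKM in double negative cells. The immature against mature difference was 1.70 (SE 0.10, limma adjusted p = 4.22e-05).

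The Egr genes encode zinc finger factors that follow MAP kinase activity. Egr1 measured 60.2 and 64.9 RPKM in immature, 43.2 and 39.6 RPKM in mature and 63.2 and 68.1 RPKM in double negative cells, so that immature and double negative cells overlapped and mature cells were lower. Egr2 and Egr3 were rare. Egr2 read 1.72 and 1.45 RPKM in immature cells from 14 and 17 reads, and 0.81 and 0.87 RPKM in double negative cells from 61 and 67 reads, whereas the mature libraries held 3 reads and 1 read, with upper 95% Poisson limits of 0.109 and 0.0611 RPKM. Egr3, which did not pass the filter, held 22 and 6 reads in the immature libraries, or 2.07 and 0.41 RPKM, 25 and 28 reads in the double negative libraries and 3 reads in each mature library. The immature replicates of Egr3 disagree by more than their Poisson intervals, 1.31 to 3.16 RPKM and 0.145 to 0.859 RPKM.

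The Klf genes encode zinc finger factors of growth arrest and differentiation, Klf10 also answering to TGF-beta. Klf6 was the one that differed most, at 47.0 and 46.1 RPKM in immature, 6.93 and 6.74 RPKM in mature and 16.0 and 18.9 RPKM in double negative cells (chromosome 13, 5861482 to 5870394, plus strand, GRCm38). It was higher in immature than in mature cells by 2.60 (SE 0.09, limma adjusted p = 5.68e-06) and than in double negative cells by 1.37 (SE 0.09, adjusted p = 0.000105). Klf10 stood at 22.5 and 20.3 RPKM for immature and 20.5 and 19.9 RPKM in double negative cells, which overlapped, and at 9.0 and 9.37 RPKM in mature cells. Klf4 ran from 6.28 and 5.77 RPKM in mature through 10.4 and 10.8 in immature to 13.1 and 12.7 RPKM in double negative cells. Klf2, a shear-responsive factor of endothelial cells, was low throughout, at 4.07 and 3.30 RPKM in immature (18 and 21 reads), 1.99 and 1.43 in mature and 5.74 and 3.5 RPKM in double negative cells. All 4 genes therefore had their lowest mean in mature cells, and the immature against mature differences of Klf10 and Klf4 were 1.14 and 0.73.

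Nr4a1, Nr4a2 and Nr4a3 encode orphan nuclear receptors that calcium and cyclic AMP induce in many cells, and Nr4a3 had another order of levels than the other two. Nr4a1 (chromosome 15, 101254269 to 101274795, plus strand, GRCm38) measured 35.0 and 34.3 RPKM in mature, 25.2 and 24.9 RPKM for immature and 7.36 and 7.52 RPKM in double negative cells. Both beta cell populations exceeded the double negative cells, by 2.08 (SE 0.05, limma adjusted p = 6.49e-06) for mature and 1.62 (SE 0.05, adjusted p = 1.3e-05) for immature cells. Nr4a2 (chromosome 2, 57106830 to 57124003, minus strand, GRCm38) set mature cells apart from both others, at 29.2 and 27.7 RPKM against 10.8 and 9.07 RPKM for immature and 8.14 and 7.01 RPKM in double negative cells. It fell by 1.43 from mature to immature cells (SE 0.10, limma adjusted p = 0.000108), the largest of the 3 falls in that comparison, and its small excess in immature over double negative cells, 0.35, was lost under both rescalings. Nr4a3 was among the scarcest genes of the list, at 1.60 and 1.02 RPKM in immature, 0.31 and 0.32 in mature and 0.42 and 0.45 RPKM in double negative cells, and both of its differences from mature cells turned sign under quantile normalization (-0.20 and 0.31). The half-site counts of the windows printed above are the same for all 3 genes.

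The Dusp genes encode phosphatases that switch MAP kinases off. Dusp6, which acts on ERK and is itself an ERK target, had a narrow spread between replicates, at 35.6 and 35.7 RPKM in immature, 5.35 and 5.6 RPKM in mature and 11.8 and 12.6 RPKM in double negative cells. It exceeded mature cells by 2.5 (SE 0.06, limma adjusted p = 2.2e-06) and double negative cells by 1.47 (SE 0.06, adjusted p = 2.72e-05) in immature cells. Dusp1, a nuclear phosphatase of p38 and JNK, was more abundant, at 85.5 and 85.9 RPKM in immature, 29.7 and 25.8 in mature and 40.3 and 38.8 RPKM in double negative cells, with immature above mature by 1.60 (SE 0.07, limma adjusted p = 1.82e-05). Dusp5, another ERK phosphatase, was higher in immature cells, at 29.9 and 26.4 RPKM, than in mature cells at 16.0 and 18.0 RPKM and double negative cells at 14.9 and 15.9 RPKM. An antisense gene overlaps 22.1% of its exons. Dusp2, known from activated immune cells, was not tested: it held 6 reads in each immature library, 4 and 5 in the double negative libraries and 0 in both mature ones. Its immature mean of 1.06 RPKM was at least 35.8-fold higher than the 0.0296 RPKM that 3 reads over the 2 mature libraries would give, a bound that rests on these few reads.

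Zfp36, Zfp36l1 and Btg2 act on mRNA decay and growth arrest, the Zfp36 proteins by binding AU-rich elements and Btg2 by recruiting deadenylases. Zfp36 overlapped between immature and double negative cells, at 97.7 and 105.5 RPKM and 102.0 and 95.5 RPKM, and was lower in mature cells at 26.9 and 26.5 RPKM. Mature cells differed from double negative cells by -1.85 (SE 0.06, limma adjusted p = 1e-05), and the immature against double negative difference was 0.04 (adjusted p = 0.602), which turned to -0.22 under quantile normalization (adjusted p = 0.0347). Zfp36l1 (chromosome 12, 80107754 to 80113013, minus strand, GRCm38) measured 9.80 and 16.8 RPKM in immature, 0.14 and 0.10 RPKM in mature and 3.43 and 4.44 RPKM in double negative cells. The 2 mature values rest on about 10 and 8 reads, and the immature replicates differed by 0.722 on the log2 scale, the widest gap of any tested listed gene in that population. The immature against mature difference was 3.63 (SE 0.24, limma adjusted p = 7.48e-05). Exons of an opposite-strand noncoding gene cover 55.9% of the Zfp36l1 exons, which makes its level uncertain. Btg2 stood at 133.0 and 132.7 RPKM in double negative, 95.2 and 92.5 RPKM for immature and 72.3 and 69.5 RPKM in mature cells, with no overlap between groups.

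Ier2, Ier3 and Ier5 are early response genes named for their induction, Ier3 being a modulator of survival signalling, and Sik1 encodes a CREB-induced kinase that restrains CREB coactivators. Ier3 stood at 134.6 and 131.0 RPKM in mature and 141.5 and 147.7 RPKM in immature cells, a difference that did not pass (adjusted p = 0.0672), and was lower in double negative cells at 56.1 and 55.1 RPKM. The mature against double negative difference was 1.24 (SE 0.05, limma adjusted p = 1.42e-05). Ier2 was highest in double negative cells, at 95.8 and 81.2 RPKM there, 62.9 and 76.6 RPKM for immature and 59.0 and 58.1 RPKM in mature cells. Ier5 was set apart by immature cells, at 18.4 and 16.3 RPKM against 8.98 and 7.77 in mature and 8.22 and 6.88 RPKM in double negative cells, which overlapped. Sik1 overlapped between the beta cell populations, at 15.7 and 14.5 RPKM for immature and 15.1 and 14.6 RPKM in mature cells, and was lower in double negative cells at 8.66 and 8.61 RPKM. Its immature against mature difference of 0.03 (limma adjusted p = 0.747) turned to -0.18 under median-ratio rescaling (adjusted p = 0.0311) and -0.25 under quantile normalization (adjusted p = 0.0117).

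Hspa1a and Hspa1b encode the same inducible Hsp70 chaperone and share 58.8% and 62.3% of the 50-base windows of their transcripts, so their split is uncertain, and an opposite-strand gene overlaps 19.0% of the Hspa1a exons. Hspa1b measured 12.7 and 10.0 RPKM in immature, 5.79 and 4.39 in mature and 1.71 and 1.79 RPKM in double negative cells. Hspa1a followed the same order at 6.48 and 6.06 RPKM, 4.76 and 2.53 and 0.79 and 0.85 RPKM. In immature against double negative cells the differences were among the 3 largest of the list, with Atf3, at 2.16 (SE 0.15, limma adjusted p = 0.00015) and 2.0 (SE 0.22, adjusted p = 0.000829). The mature replicates of Hspa1a differed by 0.708 on the log2 scale, where the listed genes had a median gap of 0.0553 in mature cells. Male-labelled replicate 1 was the higher one for both genes there.

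The Gadd45 genes encode stress sensors of growth arrest, and each had its own profile. Gadd45g was highest in double negative cells, at 163.8 and 135.5 RPKM, with 93.7 and 103.8 in immature and 78.8 and 78.4 RPKM in mature cells. Gadd45b had near levels in immature and double negative cells, at 25.4 and 23.8 RPKM and 21.0 and 19.98 RPKM, and was lower in mature cells at 8.93 and 9.04 RPKM, by 1.36 against immature cells (SE 0.06, limma adjusted p = 1.59e-05). Gadd45a ran from 12.7 and 13.8 RPKM in double negative through 19.7 and 18.0 in mature to 19.9 and 23.7 RPKM in immature cells. A noncoding gene on the other strand overlaps 19.1% of the Gadd45a exons.

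Socs3, Nfkbia and Tnfaip3 are feedback inhibitors, the first of cytokine receptors that signal through STAT3 and the others of NF-kappaB. Socs3 was highest in double negative cells, at 65.5 and 55.0 RPKM, against 35.5 and 33.1 in immature and 22.6 and 21.1 RPKM in mature cells, and mature cells differed from double negative cells by -1.42 (SE 0.09, limma adjusted p = 9.43e-05). Nfkbia had a narrow range, with 82.4 and 77.8 RPKM in immature, 79.1 and 76.8 RPKM in mature and 59.1 and 53.1 RPKM in double negative cells. Tnfaip3 was low, at 8.61 and 5.50 RPKM in immature, 5.25 and 5.31 in mature and 2.98 and 3.21 RPKM in double negative cells. Both NF-kappaB inhibitors were higher in each beta cell population than in double negative cells and Socs3 was lower, with the exception for Tnfaip3 given above when single libraries are left out.

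Cyr61 (annotated as Ccn1, chromosome 3, 145646976 to 145649981, minus strand, GRCm38), a target of serum response factor and of YAP, gave the largest difference of the list in both comparisons with mature cells. It measured 46.8 and 40.1 RPKM in immature cells from 226 and 279 reads, 15.5 and 17.9 RPKM in double negative cells, and 0.40 and 0.31 RPKM in mature cells from 19 and 17 reads. The immature against mature difference was 5.03 (SE 0.11, limma adjusted p = 1.51e-06) and that between mature and double negative cells -3.71 (SE 0.11, adjusted p = 8.12e-06). The endothelial cadherin gene Cdh5 had the same order in these libraries, at 125.2 and 124.9 RPKM in immature, 0.50 and 0.26 in mature and 31.1 and 30.7 RPKM in double negative cells. The collagen gene Col3a1 ran likewise, at 23.2 and 12.8 RPKM, 0.06 and 0.01 RPKM, and 1.81 and 1.99 RPKM. Against double negative cells, the immature mean was 2.60-fold for Cyr61, 3.38-fold for Zfp36l1, 2.67-fold for Klf6 and 2.92-fold for Dusp6, beside 3.59-fold for the lymphocyte, 4.0-fold for the endothelial, 4.88-fold for the mesenchymal, 15.5-fold for the acinar and 37.4-fold for the myeloid sum. The lymphocyte sum of immature cells, 6.321 and 6.425 RPKM, was mostly Ptprc at 5.45 and 5.18 RPKM. Only 1 of the 7 lymphocyte markers was tested. Those other than Ptprc did not exceed 1.01 RPKM in any library, and Cd2 and Cd79a were higher in double negative cells. The ductal sum, mostly Spp1 in double negative cells, was 0.795-fold, and the alpha, delta and PP sums were 0.14-fold, 0.168-fold and 0.4-fold. How much of these 4 genes came from any of these cell types was not tested.

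**Figure D3:**
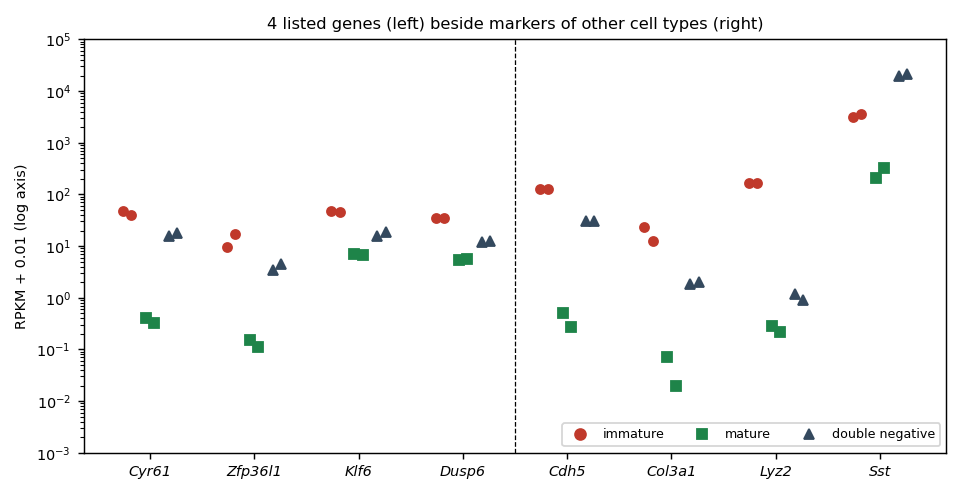
Cyr61, Zfp36l1, Klf6 and Dusp6 (left of the dashed line) beside the marker genes Cdh5 (endothelial), Col3a1 (mesenchymal), Lyz2 (macrophage) and Sst (delta cell), as RPKM + 0.01 on a log axis with 1 point per library. The 4 listed genes and the first 3 markers run immature, double negative, mature, and Sst is highest in double negative cells. Lyz2 does not stand for all 12 myeloid markers. Cd68 was 42.2 and 42.3 RPKM in mature and 10.4 and 9.24 RPKM in double negative cells. C1qa was nearly level, at 15.89 and 16.45 RPKM and 15.82 and 15.52 RPKM. The other myeloid markers were lower in mature than in double negative cells, as Lyz2 was. The myeloid sum was 62.5 and 63.2 RPKM in mature and 50.5 and 52.8 RPKM in double negative cells. Cd68 and C1qa made up most of its mature value.

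Further genes of the same pathways were taken from lists of related genes. Over all tested genes, 49.8% were higher and 15.5% lower in immature against mature cells. In mature against double negative cells these shares were 23.1% and 31.2%. The counts below on RPKM as deposited are to be read beside these shares. The rescaled counts have another background. In immature against mature cells, 5119 of 13292 tested genes were higher and 3427 lower after median-ratio rescaling. After quantile normalization 3122 of 13367 were higher and 5359 lower. Of 29 other early response genes, 17 were higher and 5 lower in immature against mature cells (14 and 10 after quantile normalization), and 13 were higher and 13 lower in mature than in double negative cells. Sgk1, a kinase induced by stress and glucocorticoids, stood at 64.7 and 65.5 RPKM in immature cells, 2.24 and 2.2 RPKM in mature cells and 11.1 and 12.7 RPKM in double negative cells. Its difference between the beta cell populations was 4.36 (SE 0.07, limma adjusted p = 9.6e-07). Ctgf, a relative of Cyr61, was close behind at 4.32 (SE 0.10), with 20.7 and 21.5 RPKM against 0.15 and 0.07 RPKM. Both are low in mature cells as Cyr61 is. Vgf, a secreted peptide precursor, fell by 1.91 and the polo-like kinase gene Plk3 fell by 1.53 from mature to immature cells. Plk3 and Ppp1r15a, which relieves the translational block of the integrated stress response, exceeded double negative cells by 3.95 and 1.74 in mature cells. Id1 and Id3, inhibitors of bHLH factors, were at -4.18 and -2.89 in that comparison.

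Among 14 tested AP-1 partners and bZIP genes, 6 were higher and 5 lower in immature against mature cells. Fosl1, a Fos relative, was higher by 2.35 (SE 0.25, limma adjusted p = 0.000442), with 30.1 and 17.5 RPKM against 3.29 and 4.17 RPKM, and Jdp2, a repressor of AP-1, by 1.76. Cebpd and Atf5 fell by 1.63 and 1.36. In mature against double negative cells 6 of these genes were higher, led by Atf5 (2.03) and Cebpd (1.71), and 4 lower, led by Batf (-2.35) and Jdp2 (-1.04). Of 13 serum response and CREB factors, 9 were higher and 1 lower in immature against mature cells, but 4 and 4 after quantile normalization, and 2 were higher and 8 lower in mature than in double negative cells. The 1 lower gene was Crem at -0.87 (SE 0.07, limma adjusted p = 0.000184), a CREB relative with a cyclic AMP-induced repressor form that these gene-level values do not resolve. It measured 13.0 and 14.1 RPKM in immature cells, 26.5 and 24.7 RPKM in mature cells and 8.24 and 8.96 RPKM in double negative cells, the order of Nr4a1, Nr4a2 and Maff. Elk3 and Mkl1, partners of serum response factor, were higher in immature than in mature cells by 1.16 and 1.05.

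Of 21 tested genes of the MAP kinase cascade, 11 were higher and 3 lower in immature against mature cells, a split that rescaling undid, with 8 and 7 after the median-ratio and 2 and 5 after the quantile method. Spry1, an inhibitor of receptor tyrosine kinase signalling, was higher by 2.5 in immature cells. Dusp14 and Dusp4, phosphatases like the listed ones, fell by 2.40 and 0.85 there and exceeded double negative cells by 3.78 and 1.94 in mature cells, where Dusp6 was lower. Of 19 heat shock genes, 9 were higher and 3 lower in immature against mature cells, and 6 and 8 after median-ratio rescaling. The small heat shock genes Cryab and Hspb1 led with 6.58 (SE 0.21, limma adjusted p = 4.83e-06) and 2.44. Cryab stood at 180.5 and 112.3 RPKM in immature cells, 0.5 and 0.5 RPKM in mature cells and 17.0 and 16.7 RPKM in double negative cells, once more the order of Cyr61. In mature against double negative cells 4 heat shock genes were higher, led by Bag3 at 0.51, and 6 lower.

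Of 16 NF-kappaB genes, 9 were higher and 2 lower in immature against mature cells, with Tnip2, an inhibitor, at 1.19, whereas quantile normalization left 4 higher and 6 lower. In mature against double negative cells 6 of them were higher, led by Nfkb2 at 1.22, and 4 lower. Of 10 SOCS family and JAK-STAT genes, 8 were higher and 2 lower in immature against mature cells (3 and 4 after quantile normalization), with Jak2 at 0.94 and Stat3 at -0.44. Among 9 tested decay partners of the Zfp36 proteins, 8 were higher and 0 lower in immature against mature cells (4 and 1 after quantile normalization), led by the deadenylase gene Cnot6 at 1.20, and 2 were higher and 7 lower in mature than in double negative cells.

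**Figure D4:**
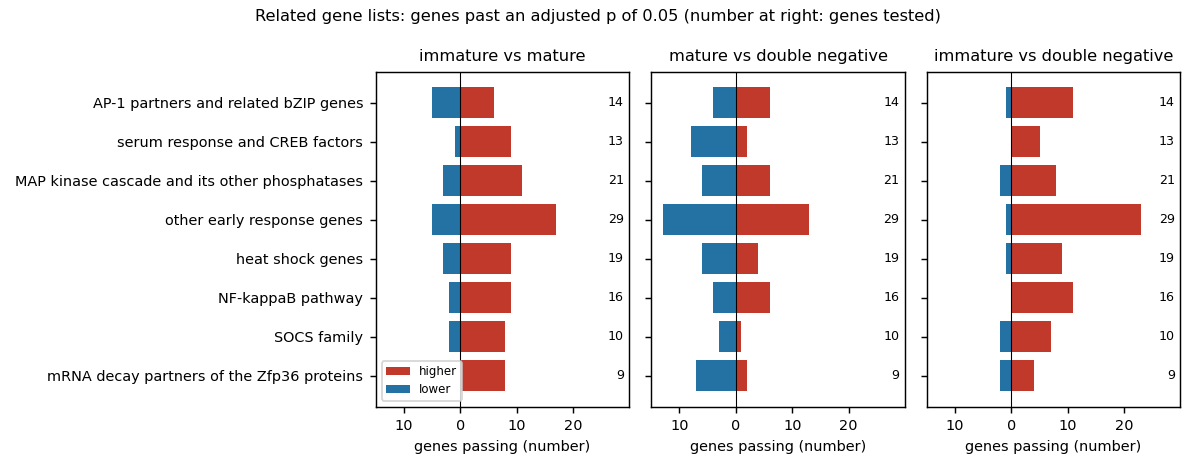
Number of genes of each related list that passed (adjusted p under 0.05), lower to the left of 0 and higher to the right, in the 3 comparisons on RPKM as deposited, with the number tested at the right edge. In immature against mature cells the bars are longer to the right, as for 17 higher and 5 lower among the other early response genes, and rescaling changes several of these splits. Over all tested genes 49.8% were higher and 15.5% lower there, so a lean to the right is not particular to these lists.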

How the data were processed

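RNA of 6 libraries, 2 for each of 3 sorted islet populations, was sequenced. The authors deposited RPKM values per gene. Per the submitters' processing notes they used STAR 2.5, featureCounts and edgeR 3.14.0 with GRCm38.p4, and whether counting used strand is not given in the sources used here. Genes with at least 1 RPKM in at least 2 of the 6 libraries (13367 of 46959) were fitted with limma 3.58.1 in R 4.3.3 on log2(RPKM + 1) with an intensity trend, with all 6 libraries, 3 residual degrees of freedom and Benjamini-Hochberg adjustment over all tested genes, calls being at 0.05. On simulated data with these depths the test recovered most changed genes, but the share of false calls was above the nominal level, and it was lower with voom on reads. The simulation gave every group the same spread beyond counting error and only raised genes, in immature cells. The real groups differ in spread. Across genes, the log2 difference between replicates had a standard deviation of 0.132 in mature libraries, 0.222 in double negative libraries and 0.393 in immature libraries. The simulation therefore cannot give the recovery or the false calls of the real comparisons. The main fit took 1 spread per gene for all 3 groups. Its standard errors therefore do not follow the wider spread of the immature libraries, which the group weights allow for. A difference on this scale understates the change of low genes. Reads were recovered from the RPKM steps and gene lengths, and voom over all genes with a length was added after the data had been seen: between 78.1% and 83.8% of low values came out whole (within 0.02 reads) and 74.2% of genes were whole in all 6 libraries. Poisson intervals cover counting error only. Libraries of the same number share a sex label and, as the design text gives the same islets for all populations, were taken as paired, although their deviations did not run together (correlations of -0.00933, 0.14 and -0.112). The block on this number was an alternative. Members and lists were chosen with earlier results of these data known. Every listed gene is described, those at 5 RPKM or more in some group with each library's value, and of each related list the 2 largest calls in each direction were eligible to be named. Alternatives were a pseudocount of 0.1, other filters, median-ratio and quantile scaling, no trend, group weights, limma-voom on recovered reads, fits of 2 groups and leaving out each library. Gene positions are from GENCODE on GRCm38, with Cyr61 listed there as Ccn1.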

Additional observations from a re-analysis of the deposited data

How the results depend on the processing

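Of the calls for the listed genes, 24 of 29 (immature vs mature), 27 of 33 (mature vs double negative) and 23 of 31 (immature vs double negative) stayed in every alternative that could be computed. With voom on whole-read genes, where 22 listed genes could be tested, the listed genes counted 16 higher and 1 lower, 8 higher and 11 lower, and 13 higher in these comparisons, fewer genes being tested. Listed genes lower in immature than in double negative cells numbered 12 under quantile normalization, 4 with 1 weight per group, and from 4 to 7 with 1 library left out. Over all genes, immature vs mature gave 4118 higher with a filter at 5 RPKM, 3122 higher and 5359 lower under quantile normalization, 3427 lower with median-ratio rescaling and 1181 lower with voom on whole-read genes, and from 1321 to 2454 lower with 1 library left out. Immature vs double negative gave 4057 higher and 2594 lower with median-ratio rescaling, 2864 and 4348 under quantile normalization and 4064 and 761 with voom, and from 837 to 1894 lower with 1 library left out. Mature vs double negative ranged from 2028 to 3765 higher and from 2629 to 5217 lower with 1 library left out. Among genes called before or after, signs turned for Nr4a3 (-0.20) and Sik1 (-0.25) in immature vs mature and for Klf10 (-0.21), Zfp36 (-0.22) and Gadd45b (-0.01) in immature vs double negative under quantile normalization, and for Sik1 (-0.18) with median-ratio rescaling. Signs of differences that passed in neither analysis turned in 5 cases under quantile normalization and in 7 with median-ratio rescaling, among them Fos, Fosl2 and Gadd45a under both. With voom on all genes with a length, which was added after seeing the data, 26 higher and 3 lower, 13 and 20, and 23 and 6 listed genes were called. Apart from the fewer genes and samples, the cause was not tested. With a replicate block for the paired libraries 26 higher and 3 lower, 13 and 19, and 24 and 6 listed genes were called, and the calls for Myc in mature vs double negative (adjusted p = 0.073) and Ier2 in immature vs double negative (0.0706) were lost, with no other call of a listed gene changed. The low depth of the immature libraries, given above, limits what can be seen of genes near 1 RPKM. Where an arm had 1 library left, that library was assumed to vary like the others.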
